A study of Mus musculus with 23 samples.

Results

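The genes described here code for 10 transcription factors of the basic leucine zipper family: Fos, Fosb, Fosl2, Jun, Junb, Jund, Batf, Batf3, Atf3 and Bach2. Every probe set of the array annotated to one of these genes alone was taken, which gave 15 probe sets, and the genes were 10 of the 18194 measured. Their levels were compared between 4 populations of mouse CD4+ T cells, each a sort gate defined by 2 surface proteins. CD25 is a chain of the receptor for interleukin 2, and CD49f is an integrin chain encoded by Itga6. The CD25+CD49f+ gate had 4 arrays, the CD25+CD49f- gate had 5, the CD25-CD49f+ gate had 7 and the CD25-CD49f- gate had 7. The labels describe the cells as total RNA of T cells from female animals, and the strain, age and organ were not given in the sources used here. The series title concerns CD49f as a marker of regulatory T cells, and the labels name no treatment for any gate.

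AP-1 is a dimer of a Fos-family and a Jun-family protein, or of 2 Jun-family proteins. Fos, Fosb, Jun and Junb are immediate early genes, transcribed quickly and briefly after a T cell receptor or stress signal, and AP-1 then binds beside NFAT at the genes of activated T cells. Batf and Batf3 pair with Jun proteins and bind with Irf4 or Irf8, Atf3 is a stress-induced factor that can repress, and Bach2 is a repressor that occupies AP-1-like sites and restrains effector genes in mouse T cells.

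The bases before the start of Fos, Jun and Junb are shown because these genes differed together between the gates. The promoter sequences are RefSeq's (GRCm38.p6), 5′ to 3′ on the strand of the gene and without the transcribed part, and all 10 genes were matched to an entry. Capitals mark matches to 6 motifs, searched on both strands from 250 bases before to 50 after the start: the AP-1 site TGACTCA, the cyclic AMP response element TGACGTCA and its part TGACG, the variant TGACATCA, the CArG box of serum response factor, and TATAAA. A match to TGACGTCA would also count for TGACG.
Fos, chr12:85473640-85473889, plus strand: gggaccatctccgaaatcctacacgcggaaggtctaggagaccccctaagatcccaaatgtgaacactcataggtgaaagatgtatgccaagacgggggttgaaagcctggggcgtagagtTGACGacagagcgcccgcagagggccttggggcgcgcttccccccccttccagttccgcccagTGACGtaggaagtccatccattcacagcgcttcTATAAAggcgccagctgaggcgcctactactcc
Jun, chr4:95052223-95052472, minus strand: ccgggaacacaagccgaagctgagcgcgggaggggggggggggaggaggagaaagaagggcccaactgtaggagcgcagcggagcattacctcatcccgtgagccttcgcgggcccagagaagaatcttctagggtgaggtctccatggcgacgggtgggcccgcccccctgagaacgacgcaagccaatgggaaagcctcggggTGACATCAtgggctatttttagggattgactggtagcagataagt
Junb, chr8:84978749-84978998, minus strand: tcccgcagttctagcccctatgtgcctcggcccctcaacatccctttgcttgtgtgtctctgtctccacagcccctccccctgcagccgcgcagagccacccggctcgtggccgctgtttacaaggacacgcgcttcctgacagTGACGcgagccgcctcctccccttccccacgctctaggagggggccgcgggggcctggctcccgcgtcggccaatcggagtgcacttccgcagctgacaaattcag

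In these windows TGACG stood in Fos (first base at -129 and -66 from the start), Fosb (-60), Junb (-106), Batf (-98) and Atf3 (-7, on the opposite strand). It is held by 20.8% of 32851 promoters. TGACATCA stood in Jun at -45 and is held by 3.62% of the promoters. TATAAA stood in Fos at -33 and in Junb at 1, the first transcribed base, and is held by 13.6%. No member held TGACTCA, TGACGTCA or the CArG box in its window, against 5.20%, 1.79% and 1.63% of the promoters, which says only that these letters are not in these windows. Fosl2, Jund, Batf3 and Bach2 held none of the 6 motifs. Fos and Batf lie on chromosome 12 with a single protein-coding gene between them, Jdp2, a further basic leucine zipper factor. Batf3 and Atf3 lie on chromosome 1 with only Fam71a between them.

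Levels are the deposited log2 values, differences are log2 differences with their standard errors (SE), and a difference was called at a limma adjusted p under 0.05 over 18194 genes. A probe set's brightness depends on its probes, so levels are compared between gates and not between genes. Labelled replicate numbers are biological replicates, and their p-values cover the variation among these arrays. Transcript levels of Foxp3, the factor of regulatory T cells, averaged 9.85 in CD25+CD49f+, 9.79 in CD25+CD49f-, 8.25 in CD25-CD49f+ and 4.74 in CD25-CD49f- cells. The Itga6 transcript went against the CD49f gates in CD25- cells: it read 9.23 to 9.47 in the CD25-CD49f+ gate, against 9.55 to 9.98 in the CD25-CD49f- gate, without overlap. In CD25+ cells it read 9.78 to 9.84 in the CD25+CD49f+ gate, against 9.28 to 9.84 in the CD25+CD49f- gate, with overlap. The gates were set on surface protein, which the arrays do not measure. Cd3e averaged 11.65 to 11.70 in every gate, while Cd79a of B cells (5.11 to 5.27), Ncr1 of NK cells (5.32 to 5.71) and Pf4 of platelets (5.33 to 5.83) were in the range of absent transcripts. Jchain of plasma cells averaged 10.81 to 11.47, and Cd8a of CD8 T cells averaged 6.50 to 6.88. The mean of 12 B cell markers, class II genes among them, ran from 6.17 to 7.49 over the arrays. Cd79a alone therefore does not show that B cells were absent. Although labelled female, 12 arrays showed Xist alone, 10 showed Y-linked transcripts alone and 1 showed both. Xist read up to 6.50 on arrays of the Y-linked kind, and Y-linked transcripts read up to 5.62 on arrays with Xist alone. The reading of an absent transcript thus depends on the probe set, and that of the members is not known. A level under 6.50 may therefore be that of an absent transcript. This range covers every Fosl2 value, all Atf3 values but 2, most Batf3 values outside CD25+CD49f- cells and most Fosb values in CD25-CD49f- cells. On 4 arrays, CD25-CD49f- replicates 1 and 7, CD25-CD49f+ replicate 1 and CD25+CD49f- replicate 5, the mean correlation with the own group was 0.967 to 0.981, against 0.985 to 0.994 for the others.

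Fos, Fosb, Jun and Junb were high in the 3 gates that carry CD25, CD49f or both, and lower with a wide scatter in CD25-CD49f- cells. Fos, the founding Fos-family subunit, read 12.51, 12.08, 12.24 and 12.44 in CD25+CD49f+ cells. It read 12.56, 12.26, 12.28, 12.51 and 12.31 in the CD25+CD49f- gate and from 11.89 (median 12.08) to 12.57 in the CD25-CD49f+ gate. In CD25-CD49f- cells the replicates in number order gave 9.88, 9.11, 8.47, 11.54, 9.70, 11.55 and 10.74. Every CD25-CD49f- array was thus below every array of the other gates, and replicates 4 and 6 came nearest. The difference of CD25-CD49f+ from CD25-CD49f- cells was 2.004 ± 0.328 (adjusted p = 6.39e-05), a 4.01-fold higher level. That of CD25+CD49f- from CD25-CD49f- cells was 2.24 ± 0.36 (adjusted p = 4.54e-05), and that of CD25+CD49f+ from CD25-CD49f- cells was 2.18 ± 0.38 (adjusted p = 0.000163). Within Y-linked arrays without Xist the differences of the CD25+ gates were 1.93 and 1.87 and were not called (adjusted p = 0.0693 and 0.0695). Among the 3 high gates the Fos differences were 0.24 or less in size, and their groups overlapped.

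Fosb, a Fos-family subunit also known for lasting forms in neurons, had the same order with more contrast. It read 7.77, 7.54, 7.81 and 8.01 in the CD25+CD49f+ gate and 8.51, 7.86, 8.04, 7.95 and 8.35 in the CD25+CD49f- gate. It ran from 7.46 (median 7.69) to 8.04 in the CD25-CD49f+ gate. In CD25-CD49f- cells it read 4.47 to 6.65 with a median of 5.34. No CD25-CD49f- array overlapped another gate, and most of its values there lie where an absent transcript could read. The difference of CD25-CD49f+ from CD25-CD49f- cells was 2.14 ± 0.27 (adjusted p = 1.39e-06), and that of CD25+CD49f- from CD25-CD49f- cells was 2.54 ± 0.29 (adjusted p = 3.41e-07).

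Jun, the founding Jun-family subunit, read 11.85, 11.20, 11.79 and 11.56 in the CD25+CD49f+ gate and 12.12, 11.59, 11.92, 11.63 and 11.08 in the CD25+CD49f- gate. It ran from 11.08 (median 11.52) to 12.00 in the CD25-CD49f+ gate, against 8.24 (median 9.37) to 11.12 in the CD25-CD49f- gate. Replicate 4 of CD25-CD49f- cells reached into the range of the CD25+CD49f- and CD25-CD49f+ gates, and the other 6 did not. The difference of CD25-CD49f+ from CD25-CD49f- cells was 1.95 ± 0.33 (adjusted p = 9.05e-05). A second, dimmer Jun probe set gave 1.22 ± 0.28 for it (adjusted p = 0.00368 over 45101 probe sets), and 1.78 ± 0.30 (adjusted p = 0.000159) for CD25+CD49f- against CD25-CD49f- cells.

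Junb, a Jun-family subunit that supports regulatory and helper T cell programmes in mice, read 9.99, 9.59, 10.48 and 10.26 in the CD25+CD49f+ gate and 10.25, 9.96, 10.22, 9.91 and 10.13 in the CD25+CD49f- gate. It ran from 9.84 (median 10.22) to 11.05 in the CD25-CD49f+ gate and from 7.65 (median 8.49) to 10.40 in the CD25-CD49f- gate. The highest CD25-CD49f- array was replicate 7, which lay among the high gates, and the other 6 lay below all of them. The difference of CD25-CD49f+ from CD25-CD49f- cells was 1.54 ± 0.29 (adjusted p = 0.000431), and 1.82 without replicate 7 of CD25-CD49f- cells. That of CD25+CD49f+ from CD25-CD49f- cells was 1.36 ± 0.35 (adjusted p = 0.00701), and it was not called when these gates were fitted alone (adjusted p = 0.0582). 

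**Figure D1:**
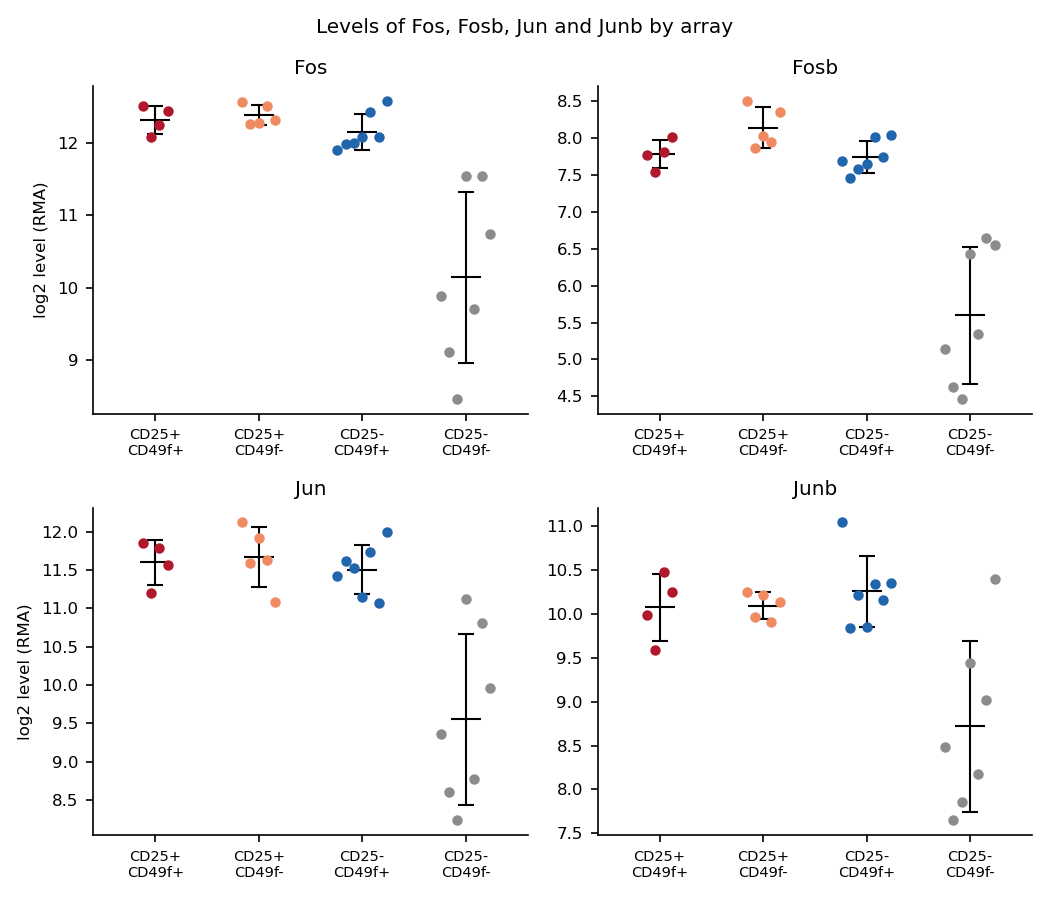
Levels of Fos, Fosb, Jun and Junb on each array (log2, RMA; axes do not start at 0), by gate, with the mean and SD in black. Fos lies between 11.89 and 12.57 in the 3 gates with CD25, CD49f or both and between 8.47 and 11.55 in CD25-CD49f- cells.

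The scatter in CD25-CD49f- cells was large for these 4 genes. The SD of Fos was 0.19 in CD25+CD49f+, 0.14 in CD25+CD49f-, 0.25 in CD25-CD49f+ and 1.18 in CD25-CD49f- cells. Only 0.0275% of the measured genes had a larger SD than Fos in CD25-CD49f- cells, where the median gene had 0.213. Jun (SD 1.12), Junb (0.97) and Fosb (0.93) were exceeded by 0.0495%, 0.126% and 0.192% of genes, whereas Jund (0.24) was exceeded by 41.1%. The limma fit takes one spread for all gates, which is too small for these genes in CD25-CD49f- cells. With the CD25-CD49f+ and CD25-CD49f- gates fitted alone, the adjusted p was 0.00186 for Fos, 0.000112 for Fosb, 0.00167 for Jun and 0.00532 for Junb. That fit still takes one spread for both gates, so it lessens this limit without removing it.

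Within the 7 CD25-CD49f- arrays, Jun and Fosb followed Fos from array to array. These relations, 14 in all, were chosen after the values were seen. Jun had r = 0.98 with Fos (exact permutation p = 0.000397, adjusted 0.00556; rho = 0.96, exact p = 0.00278, adjusted 0.0389). Fosb had r = 0.96 (exact permutation p = 0.00179, adjusted 0.0125; rho = 0.93, exact p = 0.00675, adjusted 0.0472). Without replicates 4 and 6, which lie farthest from the median of Fos, r was 0.96 for Jun and 0.94 for Fosb. Junb had r = 0.76 (exact permutation p = 0.0452, adjusted 0.211; rho = 0.82, exact p = 0.0341, adjusted 0.159), and 0.87 without those replicates.

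The other 11 relations with Fos did not pass the adjustment, with adjusted p-values of at least 0.486. Among them, the mean of 19 other immediate early genes had r = 0.44 (exact permutation p = 0.32; rho = 0.43, exact p = 0.354) and -0.48 without replicates 4 and 6. The mean of 13 heat shock and dissociation stress genes had r = 0.39 (exact p = 0.389; rho = 0.36, exact p = 0.444), and the Actb 3′ minus 5′ difference, a sign of RNA degradation, had r = 0.13 (exact p = 0.81; rho = 0.36, exact p = 0.444). The CD25-CD49f- arrays with Y-linked transcripts, replicates 2, 6 and 7, gave 9.11, 11.55 and 10.74 for Fos, and those with Xist, replicates 1, 3, 4 and 5, gave 9.88, 8.47, 11.54 and 9.70, so these kinds overlapped.

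**Figure D2:**
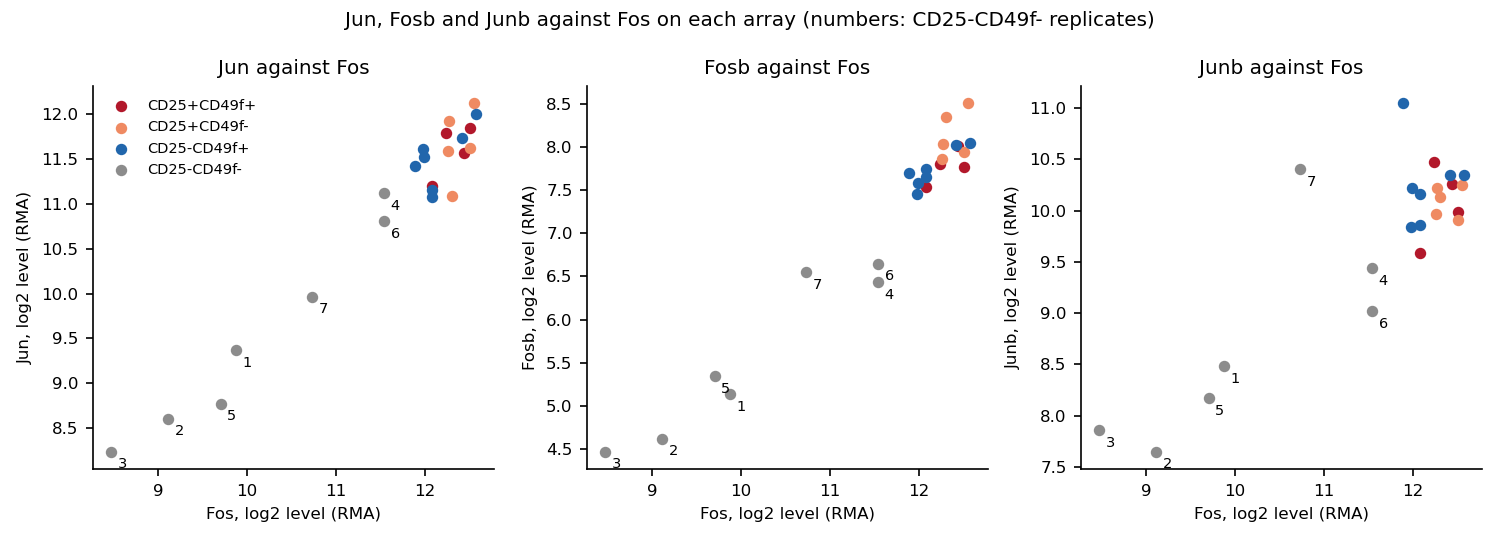
Level of Jun, Fosb and Junb (vertical, log2) against that of Fos (horizontal, log2) on each of the 23 arrays, coloured by gate, with CD25-CD49f- replicates numbered. The CD25-CD49f- arrays spread along a line for Jun (r = 0.98) and Fosb (r = 0.96), and replicate 7 stands above the others for Junb.

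By the mean absolute difference over the 23 arrays after centring each gene, the genes most like Fos were Fosb (0.20), Jun (0.21) and Dusp1 (0.22), which codes a phosphatase of MAP kinases. Dusp1 was also the second nearest gene to Fosb (0.21) and to Jun (0.23). It averaged 12.01 in CD25+CD49f+, 11.99 in CD25+CD49f-, 11.56 in CD25-CD49f+ and 9.41 in CD25-CD49f- cells. The genes nearest to Junb were Nr4a1, an orphan nuclear receptor, Cebpb, a basic leucine zipper factor, and Ppp1r15a, a phosphatase subunit of the stress response, each at 0.36.

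Jund, the Jun-family subunit that is widely present without stimulation, and Batf moved the same way by less. Jund read 11.19 to 11.55 in CD25+CD49f+, 11.07 to 11.98 in CD25+CD49f-, 11.31 to 11.77 in CD25-CD49f+ and 10.68 to 11.34 in CD25-CD49f- cells. All neighbouring gates overlapped. It was higher in CD25-CD49f+ cells than in the CD25-CD49f- gate by 0.52 ± 0.12 (adjusted p = 0.00412) and in CD25+CD49f- cells than in the CD25-CD49f- gate by 0.64 ± 0.14 (adjusted p = 0.00142). The value for CD25+CD49f+ against CD25-CD49f- cells was 0.37 ± 0.15 (adjusted p = 0.115), and it was called without the 4 arrays that stood apart (0.45, adjusted p = 0.0203). A second Jund probe set read about 4 in every gate and was not called in any comparison, and with the mean of both probe sets neither of the called differences passed (0.20, adjusted p = 0.163, and 0.28, adjusted p = 0.0573).

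Batf, which regulatory T cells of mouse tissues need, read 8.51, 8.77, 8.87 and 8.75 in the CD25+CD49f+ gate and 8.63, 9.11, 8.88, 8.70 and 8.65 in the CD25+CD49f- gate. It ran from 8.54 (median 8.71) to 9.07 in the CD25-CD49f+ gate and from 7.61 (median 7.92) to 9.18 in the CD25-CD49f- gate. The CD25-CD49f- maximum was replicate 7, above every other array of the series, and the next was 8.22, below all other gates. The difference of CD25-CD49f+ from CD25-CD49f- cells was 0.66 ± 0.16 (adjusted p = 0.00605), and 0.84 (adjusted p = 9.37e-07) without that array. The difference of CD25+CD49f- from CD25-CD49f- cells was 0.72 ± 0.18 (adjusted p = 0.0055). That of CD25+CD49f+ from CD25-CD49f- cells was 0.65 ± 0.19 (adjusted p = 0.0211). It lost its call without CD25+CD49f+ replicate 2, 3 or 4 (adjusted p = 0.0624, 0.0772 and 0.0578) and with these gates fitted alone (0.11).

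Batf3, a Batf-family factor known best for the development of conventional dendritic cells, had an order of its own. It read 4.81, 5.46, 5.06 and 5.32 in the CD25+CD49f+ gate, against 6.68, 6.70, 7.03, 7.18 and 7.13 in the CD25+CD49f- gate. It read 5.11 (median 5.27) to 5.39 in the CD25-CD49f+ gate, against 5.60 (median 5.81) to 6.83 in the CD25-CD49f- gate. All arrays of the CD49f+ gates lay below all arrays of the CD49f- gates. Within CD25+ cells it was lower in CD25+CD49f+ cells than in the CD25+CD49f- gate by a difference of -1.78 ± 0.19 (adjusted p = 4.60e-07), a 3.44-fold change. Within CD25- cells the difference of CD25-CD49f+ from CD25-CD49f- cells was -0.70 ± 0.15 (adjusted p = 0.00138), and -0.56 (adjusted p = 0.000806) without CD25-CD49f- replicate 7, the highest array of its gate. CD25+CD49f- exceeded CD25-CD49f- cells by 0.99 ± 0.16 (adjusted p = 6.66e-05). Only in CD25+CD49f- cells were all arrays above 6.50, so the other sizes are those of signals that may include background.

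Dendritic cell markers were compared beside Batf3, since that cell type expresses it. Itgax, which codes CD11c, averaged 6.22 in CD25+CD49f+, 6.16 in CD25+CD49f-, 6.66 in CD25-CD49f+ and 8.58 in CD25-CD49f- cells. The mean of 15 myeloid and dendritic cell markers ran from 6.34 to 6.89, 6.53 to 6.93, 6.57 to 7.09 and 6.78 to 7.85 in the same gates. Of these markers 7 fell and 0 rose in CD25-CD49f+ against CD25-CD49f- cells, against 5.42% and 8.01% of all genes. In CD25+CD49f+ against CD25+CD49f- cells 2, Fcer1g and Adgre1, fell and 0 rose, against 1.47% and 0.352%. The monocyte and macrophage genes Csf1r (gate means 7.73 to 8.57) and Lyz2 (8.55 to 9.28) were above 6.50 on every array and were not called in these comparisons. In the gate with the highest Batf3, CD25+CD49f-, 1 of the 15 was higher and 5 lower than in CD25-CD49f- cells. The shares of all genes were 9.34% and 4.68%. In CD25+CD49f- against CD25-CD49f+ cells 3 of the 15 were higher and 0 lower, against 5.23% and 3.63% of all genes. They were Fcer1g (1.59 ± 0.26), Adgre1 (0.60 ± 0.15) and Bst2 (0.46 ± 0.14). The class II genes H2-Aa and H2-Ab1 and their chaperone Cd74, which dendritic cells express, were higher there by 1.21, 1.13 and 1.10. Where Batf3 was lower, in CD25+CD49f+ against CD25+CD49f- cells, H2-Aa fell by 1.70, H2-Ab1 fell by 1.54 and Cd74 fell by 1.41. Markers thus moved both with and against Batf3, and the part of other cells in its differences was not tested. In such bulk samples fewer cells of a type and less RNA per cell cannot be told apart. The genes nearest to Batf3 over the 23 arrays were Fut4 (mean absolute difference 0.25), a fucosyltransferase, Plcg2 (0.26), a phospholipase of immune receptor signalling, and Tmem51 (0.26).

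Atf3 read 5.997 to 6.33 in CD25+CD49f+, 5.74 to 6.51 in CD25+CD49f-, 5.78 (median 6.15) to 6.62 in CD25-CD49f+ and 5.39 (median 5.59) to 5.74 in CD25-CD49f- cells. The CD25-CD49f- arrays lay below all others, by a margin under 0.01 at the nearest. The difference of CD25-CD49f+ from CD25-CD49f- cells was 0.64 ± 0.13 (adjusted p = 0.000629), and those of the CD25+ gates from CD25-CD49f- cells were 0.65 ± 0.15 and 0.64 ± 0.14. Nearly all of these levels lie where an absent transcript could read.

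Fosl2, a Fos-family subunit, read 4.97, 4.94, 5.21 and 4.86 in CD25+CD49f+ cells, against 5.68, 5.78, 5.57, 5.50 and 5.94 in CD25+CD49f- cells. The groups did not overlap, but every level lay under 6.50. The other Fosl2 probe set averaged 5.40 in CD25+CD49f+ and 5.52 in CD25+CD49f- cells and was not called (-0.11 ± 0.10, adjusted p = 0.99999). The difference on the probe set used for Fosl2 was -0.70 ± 0.17 (adjusted p = 0.0288). It lost its call when any 1 of CD25+CD49f+ replicates 1, 2 and 4 or CD25+CD49f- replicates 1, 2 and 5 was left out (adjusted p = 0.0564 to 0.117). Against CD25-CD49f+ cells, CD25+CD49f+ cells gave -0.66 ± 0.16 (adjusted p = 0.011), and 0.0542 without CD25+CD49f+ replicate 4. Against CD25-CD49f- cells they gave -0.58 ± 0.16 (adjusted p = 0.0153), which was lost without CD25+CD49f+ replicate 2 (0.0508) or 4 (0.0628). That call was also lost with these gates fitted alone (0.0576). It was lost in arrays without Y-linked transcripts (0.124) and in Y-linked arrays without Xist (0.283) too.

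Bach2 was lowest in CD25-CD49f+ cells and highest in CD25-CD49f- cells. It read 9.61, 9.72, 9.62 and 9.60 in the CD25+CD49f+ gate and 9.93, 10.03, 9.70, 9.87 and 9.28 in the CD25+CD49f- gate. It ran from 8.78 (median 8.92) to 9.09 in CD25-CD49f+ cells, against 9.78 (median 10.17) to 10.33 in CD25-CD49f- cells. All CD25-CD49f+ arrays were below all other arrays. CD25-CD49f+ cells differed from CD25-CD49f- cells by -1.17 ± 0.10 (adjusted p = 1.04e-09), a 2.26-fold lower level. CD25+CD49f+ cells were above CD25-CD49f+ cells by 0.69 ± 0.11 (adjusted p = 0.000147), and CD25+CD49f- cells were above them by 0.82 ± 0.11 (adjusted p = 3.58e-06).

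Between the CD25+ gates Bach2 gave -0.12 ± 0.12 (adjusted p = 0.986; 95% interval -0.37 to 0.13). CD25+CD49f- cells gave -0.36 ± 0.11 against CD25-CD49f- cells (adjusted p = 0.0202). This call was lost without CD25+CD49f- replicate 3 (adjusted p = 0.0541) or 5 (-0.24, adjusted p = 0.0851), with these gates fitted alone (0.114) and with centring on the array median (0.064). It was also lost with the Actb 3′ minus 5′ difference as a covariate (-0.23, adjusted p = 0.0528), and CD25+CD49f- replicate 5 had the highest such difference of the series (4.83). Within arrays without Y-linked transcripts it was -0.14 (adjusted p = 0.739), and within Y-linked arrays without Xist -0.34 (0.207). CD25+CD49f+ cells gave -0.48 ± 0.11 against CD25-CD49f- cells (adjusted p = 0.00345). This call was lost within arrays without Y-linked transcripts (-0.45, adjusted p = 0.0839). The second Bach2 probe set gave -0.94 ± 0.15 for CD25-CD49f+ against CD25-CD49f- cells (adjusted p = 6.05e-05 over 45101 probe sets) and 0.62 ± 0.17 for CD25+CD49f+ against CD25-CD49f+ cells (0.0431). It was not called for CD25+CD49f+ against CD25-CD49f- cells (-0.31 ± 0.17, adjusted p = 0.352). For CD25+CD49f- against CD25-CD49f- cells it gave -0.22 ± 0.16 (adjusted p = 0.54). The third, at about 6, was not called in any comparison. B cells also express Bach2. Of 12 B cell markers 3 fell and 0 rose in CD25-CD49f+ against CD25-CD49f- cells, against 5.42% and 8.01% of all genes. These were the class II genes H2-Aa and H2-Ab1 and their chaperone Cd74 (-1.73 ± 0.24), which dendritic cells share. The B cell list averaged 6.48 to 7.11 on CD25-CD49f+ arrays, against 6.55 to 7.49 on CD25-CD49f- arrays, and its part in the Bach2 difference was not tested. The genes nearest to Bach2 were Bcl2 (0.17), which protects lymphocytes from death, Treml2 (0.19), a receptor of the immunoglobulin family, and Nedd4l (0.20), a ubiquitin ligase.

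**Figure D3:**
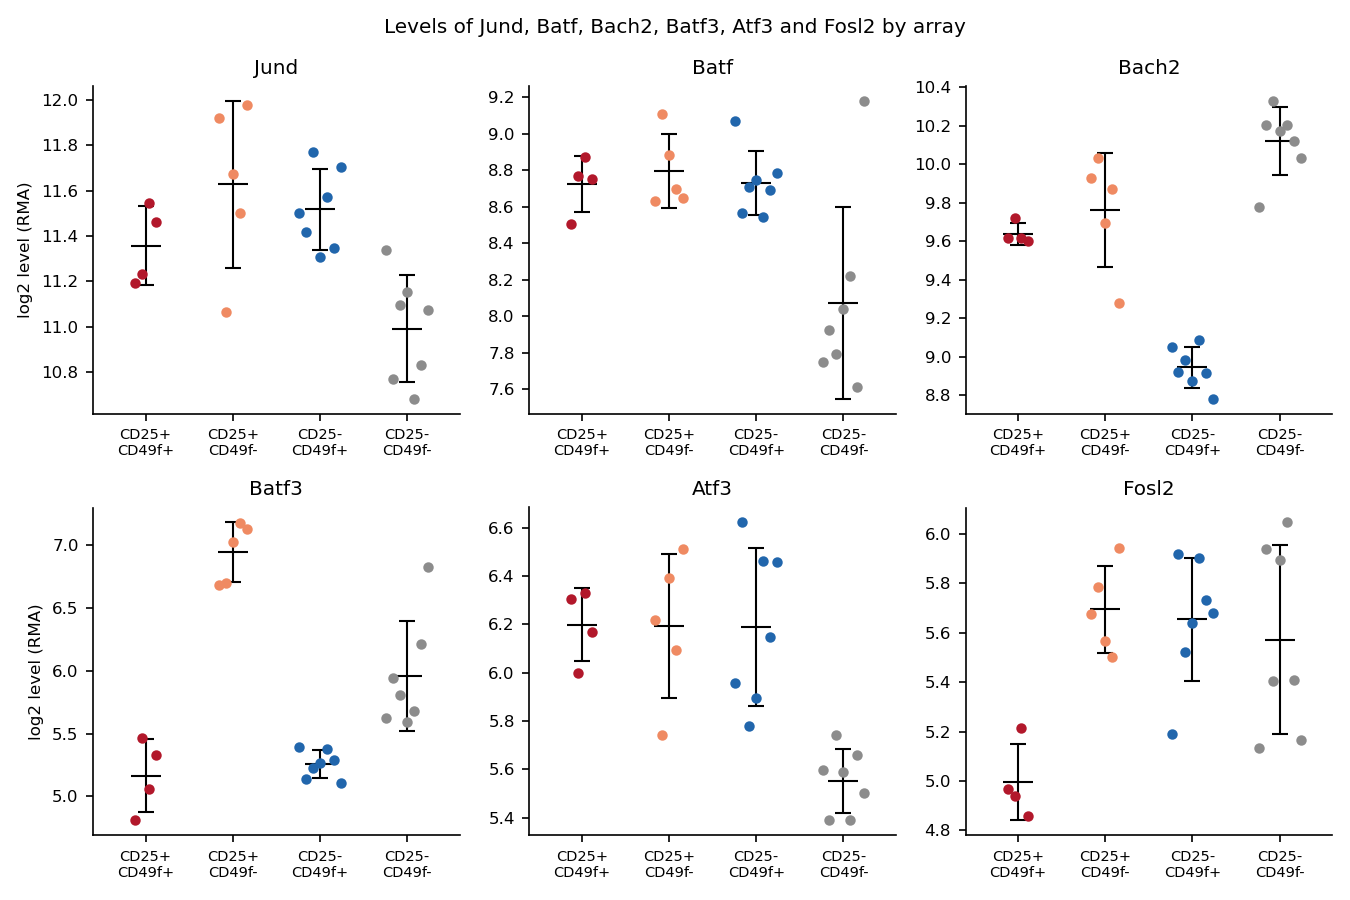
Levels of Jund, Batf, Bach2, Batf3, Atf3 and Fosl2 on each array (log2, RMA; axes do not start at 0), by gate, with the mean and SD in black. Bach2 is lowest in CD25-CD49f+ cells (8.78 to 9.09), Batf3 is highest in CD25+CD49f- cells (6.68 to 7.18), and replicate 7 of CD25-CD49f- cells stands apart for Batf at 9.18.

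The called members were counted in each comparison. For CD25-CD49f+ against CD25-CD49f- cells, 7 members were called higher (Fos, Fosb, Jun, Junb, Jund, Batf and Atf3) and 2 lower (Batf3 and Bach2), against 8.01% and 5.42% of all genes. In arrays without Y-linked transcripts 6 of these were called, without Jund (adjusted p = 0.223), Batf3 (-0.42, adjusted p = 0.0666) and Atf3 (0.135). In Y-linked arrays without Xist 7 were called, without Junb (adjusted p = 0.238) and Batf (0.43, adjusted p = 0.528). The shares of all genes above are those of the fit to all arrays and are no background for these smaller fits. Over all arrays the median difference of the 10 members was 0.65, against -0.02 over all genes. In CD25+CD49f- against CD25-CD49f- cells, 8 were higher (those 7 and Batf3) and 1 lower (Bach2), against 9.34% and 4.68% of all genes. For CD25+CD49f+ against CD25-CD49f- cells, 6 were higher and 3 lower (Fosl2, Batf3 and Bach2), against 7.63% and 5.53%. These 3 comparisons share the CD25-CD49f- arrays.

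Between the other gates 2 members were called in each comparison. For CD25+CD49f+ against CD25+CD49f- cells 0 were higher and 2 lower (Fosl2 and Batf3), against 0.352% and 1.47% of all genes. The 95% intervals for this comparison ran from -0.92 to 0.78 for Fos and from -0.49 to 0.35 for Batf, so the uncalled members are not shown to be equal. Bach2 was higher and Fosl2 lower in CD25+CD49f+ against CD25-CD49f+ cells, against 2.81% and 2.91% of all genes. For CD25+CD49f- against CD25-CD49f+ cells Batf3 and Bach2 were higher and 0 were lower, against 5.23% and 3.63%.

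Probe sets fitted one by one, over 45101, were called in either direction at 1.11% for CD25+CD49f+ against CD25+CD49f- cells, 9.83% for CD25-CD49f+ against CD25-CD49f- cells, 3.23% for CD25+CD49f+ against CD25-CD49f+ cells and 9.94% for CD25+CD49f- against CD25-CD49f- cells. Of the 5 additional member probe sets, the second of Jun was also called for CD25+CD49f+ against CD25-CD49f- cells (1.15 ± 0.32, adjusted p = 0.0215). The second of Bach2 was also called for CD25+CD49f- against CD25-CD49f+ cells (0.72 ± 0.16, adjusted p = 0.00517). The other 3 were not called in any comparison.

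The interaction asks whether the CD49f difference within CD25+ cells departs from that within CD25- cells. It was called lower for 6 members and higher for 1, against 4.33% and 0.984% of all genes. It was -2.50 ± 0.43 for Fosb (adjusted p = 0.000332), -2.07 ± 0.53 for Fos (0.016), -2.02 ± 0.53 for Jun (0.0194), -1.08 ± 0.24 for Batf3 (0.00483), -0.79 ± 0.20 for Jund (0.015) and -0.78 ± 0.22 for Fosl2 (0.0352). Bach2 had 1.05 ± 0.15 (adjusted p = 4.56e-05). In the fit over 45101 probe sets the second probe set of Jun had -1.85 ± 0.44 (adjusted p = 0.0158). That of Bach2 had 0.84 ± 0.23 (adjusted p = 0.0494). Junb (-1.56 ± 0.47, adjusted p = 0.0551), Atf3 (-0.63 ± 0.20, 0.077) and Batf (-0.73 ± 0.26, 0.137) were not called.

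The Jund interaction was -0.35 (adjusted p = 0.218) with the mean of its probe sets and lost its call under cyclic loess (0.0646). That of Fosl2 lost its call with centring on the array median (0.0554) and in the fit over all probe sets (0.0563). The interaction was called for 3 members within arrays without Y-linked transcripts and for 1 within Y-linked arrays without Xist. Single arrays decided several of these interaction calls. Jun lost its call without CD25+CD49f+ replicate 2 (-1.88, adjusted p = 0.0546). Fosl2 lost it without any 1 of 13 arrays (adjusted p = 0.0503 to 0.0934): CD25+CD49f+ replicates 1, 2 and 4, CD25+CD49f- replicates 1, 2 and 5, CD25-CD49f+ replicates 2, 5, 6 and 7, or CD25-CD49f- replicates 1, 3 and 6. Junb gained a call without CD25-CD49f- replicate 4 (adjusted p = 0.0358) or 7 (0.00114), and Batf without CD25-CD49f- replicate 7 (-0.91, 0.000422). Atf3 gained one without CD25-CD49f+ replicate 3 (0.0353) or CD25+CD49f- replicate 2 (0.0215). For Fos, Fosb and the brighter Jun probe set the means of the other 3 gates lay within 0.40 of each other. The dimmer Jun probe set averaged 8.07 in CD25+CD49f+, 8.70 in CD25+CD49f- and 8.13 in CD25-CD49f+ cells. Its difference of CD25+CD49f+ from CD25+CD49f- cells was -0.63 ± 0.35 and not called (adjusted p = 0.98).

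**Figure D4:**
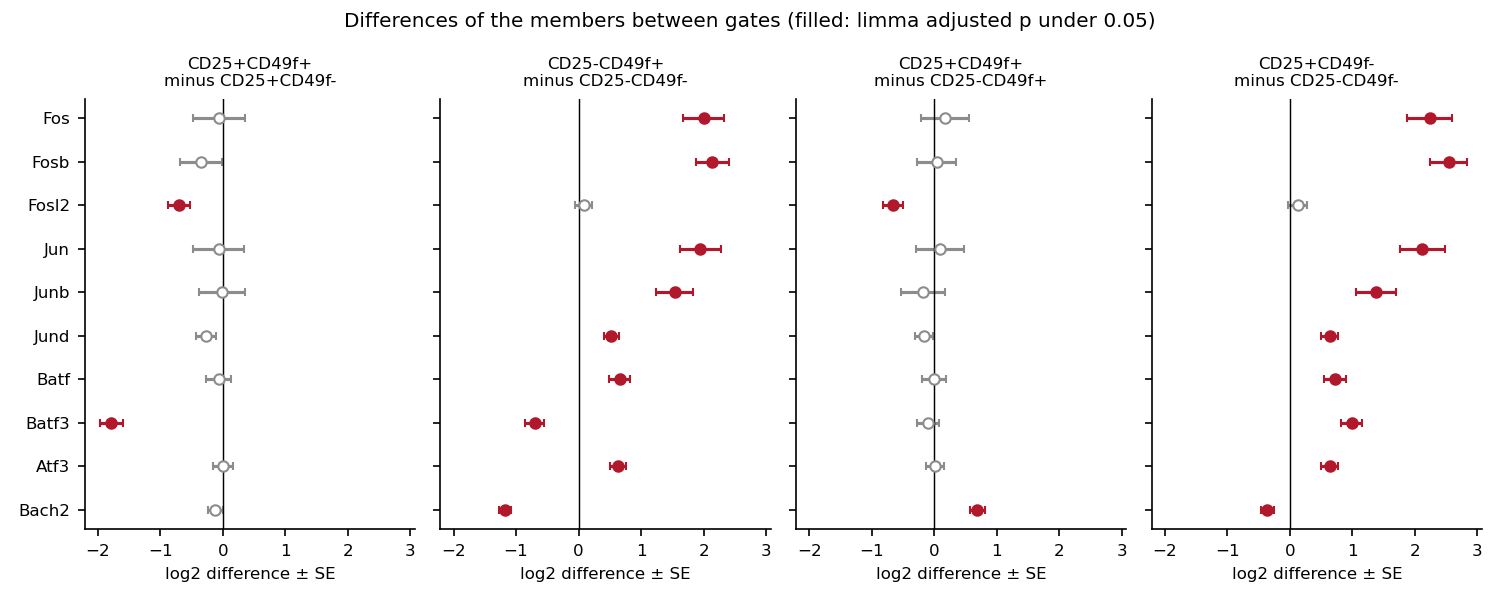
Log2 difference ± SE of each member (down the page) in the 4 comparisons of gates that share CD25 or CD49f status, filled where limma's adjusted p was under 0.05. The Fos, Fosb, Jun and Junb points lie near 0 in the panels that leave out CD25-CD49f- cells and between 1.38 and 2.54 in the other panels.

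Genes of the same pathways were counted from lists chosen with earlier results of these data known, so the counts are descriptions. Their background is the share of all genes called. In CD25-CD49f+ against CD25-CD49f- cells 8.01% were called higher and 5.42% lower. The shares were 9.34% and 4.68% for CD25+CD49f- against CD25-CD49f- cells. For CD25+CD49f+ they were 0.352% and 1.47% against CD25+CD49f- cells, and 2.81% and 2.91% against CD25-CD49f+ cells. Of 19 other immediate early genes, 16 were higher and 0 lower in CD25-CD49f+ cells than in the CD25-CD49f- gate (median difference 0.73). The 4 with the smallest p were Tnfaip3 (2.32 ± 0.22), an inhibitor of NF-kappaB signalling, the nuclear receptors Nr4a1 (1.40 ± 0.14) and Nr4a2 (1.21 ± 0.18), and Ier3 (0.64 ± 0.09). For CD25+CD49f- against CD25-CD49f- cells 13 were higher and 1 lower, led by Nr4a3 (1.38 ± 0.11). For CD25+CD49f+ against CD25+CD49f- cells limma called 0 of 19, with 2 at an unadjusted p under 0.05, and the smallest p belonged to Ier3 (-0.31 ± 0.11, adjusted p = 0.338). The mean of the list lay between 9.50 and 9.91 on every array of the 3 high gates. In the CD25-CD49f- gate it lay between 8.64 and 9.06. A mean of 19 genes evens out single genes, so its scatter cannot be set against that of Fos.

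The list of feedback regulators of MAP kinase signalling held Dusp, Spry, Spred and Gadd45 genes. Of these 12, 8 were higher and 0 lower in CD25-CD49f+ cells than in the CD25-CD49f- gate (median 0.81). Dusp4, a phosphatase, had 3.13 ± 0.14 and Spry1, an inhibitor of receptor signalling, 1.66 ± 0.10. Gadd45b gave 1.54 ± 0.13 and Dusp5 gave 1.00 ± 0.12. In CD25+CD49f+ against CD25+CD49f- cells only Spry1 was called of these 12 (0.89 ± 0.12, adjusted p = 2.61e-05).

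Of 18 kinases and regulators upstream of AP-1, 4 were higher and 1 lower in CD25-CD49f+ cells than in the CD25-CD49f- gate (median 0.06). Map3k8, a kinase upstream of ERK, had 1.37 ± 0.22, Map2k3 had 0.53 ± 0.07, and the Ets factor Elk3 had 0.68 ± 0.16, while Rasgrp1, which activates Ras below the T cell receptor, had -0.54 ± 0.07. In CD25+CD49f+ against CD25+CD49f- cells only the kinase gene Mapk10 was called (-3.51 ± 0.16, adjusted p = 5.28e-14).

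Of 22 further basic leucine zipper factors, 6 were higher and 1 lower in CD25-CD49f+ cells than in the CD25-CD49f- gate (median 0.03). Maf, a factor of Il10-producing cells, had 2.27 ± 0.33, Nfil3 had 1.53 ± 0.13, Cebpb had 1.19 ± 0.15 and Jdp2, the gene between Fos and Batf, had 0.70 ± 0.09. Jdp2 was also the only one called in CD25+CD49f+ against CD25+CD49f- cells (-0.56 ± 0.12, adjusted p = 0.00635). Of the 10 partner factors of other families, Irf4, with which Batf binds, was higher in CD25-CD49f+ cells than in the CD25-CD49f- gate (1.43 ± 0.22). Prdm1, a transcriptional repressor, was also higher there (0.49 ± 0.14), and Irf8 was lower (-0.83 ± 0.22). In CD25+CD49f+ against CD25+CD49f- cells Prdm1 (-0.95 ± 0.18) and Runx3 (-0.80 ± 0.18) were lower and 0 were higher.

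Genes that Bach2 is known to restrain in mouse T cells were high where Bach2 was lowest, though not only there. Of 21, 15 were higher and 1 lower in CD25-CD49f+ cells than in the CD25-CD49f- gate (median 0.94). They included Ifng (3.51 ± 0.22), the cytokine of type 1 responses, the calcium-binding S100a6 (2.06 ± 0.11), the protease Gzmb (1.73 ± 0.10) and the chemokine receptor Cxcr3 (1.67 ± 0.10). In CD25+CD49f- against CD25-CD49f- cells 14 were higher and 0 lower (median 1.04), where Bach2 itself differed by -0.36.

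In CD25+CD49f+ against CD25-CD49f+ cells, where Bach2 was higher by 0.69, 8 were lower and 1 higher (median -0.29), among them Cxcr3 (-1.35 ± 0.11), Tbx21 (-1.28 ± 0.12), S100a4 (-1.31 ± 0.17) and S100a6 (-1.12 ± 0.13). In CD25+CD49f+ against CD25+CD49f- cells, where Bach2 was not called, 6 were lower and 0 higher, with Ccr9 at -2.36 ± 0.23, S100a4 at -1.27 ± 0.18 and Gzmb at -0.74 ± 0.13. The mean of the list ran from 6.86 to 7.04 in CD25+CD49f+, 7.21 to 7.54 in CD25+CD49f-, 7.30 to 7.54 in CD25-CD49f+ and 6.15 to 6.60 in CD25-CD49f- cells. The part of Bach2 in these differences was not tested. Prdm1, Irf4 and Nfil3 are on this list and on others given here.

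Of 12 genes known to depend on Batf in mouse T cells, 10 were higher and 0 lower in CD25-CD49f+ cells than in the CD25-CD49f- gate (median 1.44). Ctla4, an inhibitory receptor, had 3.51 ± 0.14, Ikzf2, which codes Helios, had 2.63 ± 0.10, the costimulator Icos had 1.58 ± 0.12 and Klrg1 had 1.16 ± 0.09. In CD25+CD49f- against CD25-CD49f- cells 10 were higher and 0 lower, with Klrg1 at 3.36 ± 0.10. In CD25+CD49f+ against CD25+CD49f- cells Klrg1 (-1.95 ± 0.12) and Il21 (-1.19 ± 0.18) were lower and 0 were higher. The mean of the list ran from 8.07 to 8.91 in the other gates, against 6.49 to 7.02 in CD25-CD49f- cells. The part of Batf in these differences was not tested.

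Immediate early genes also respond to cell handling, so heat shock and dissociation stress genes were set beside them. Of 13, 4 were higher and 0 lower in CD25-CD49f+ cells than in the CD25-CD49f- gate (median 0.28): Hspa1a (2.30 ± 0.48), Hspa1b (1.501 ± 0.370), Bag3 (0.51 ± 0.08) and Hmox1 (0.48 ± 0.14). In CD25+CD49f- against CD25-CD49f- cells 3 were higher (Dnajb4, Hspd1 and Hspe1). The mean of the list ran from 9.77 to 9.98 in CD25+CD49f+, 9.69 to 10.07 in CD25+CD49f-, 9.63 to 10.15 in CD25-CD49f+ and 8.90 to 9.98 in CD25-CD49f- cells, so the gates overlapped. Their part in the Fos, Fosb, Jun and Junb differences was not tested.

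**Figure D5:**
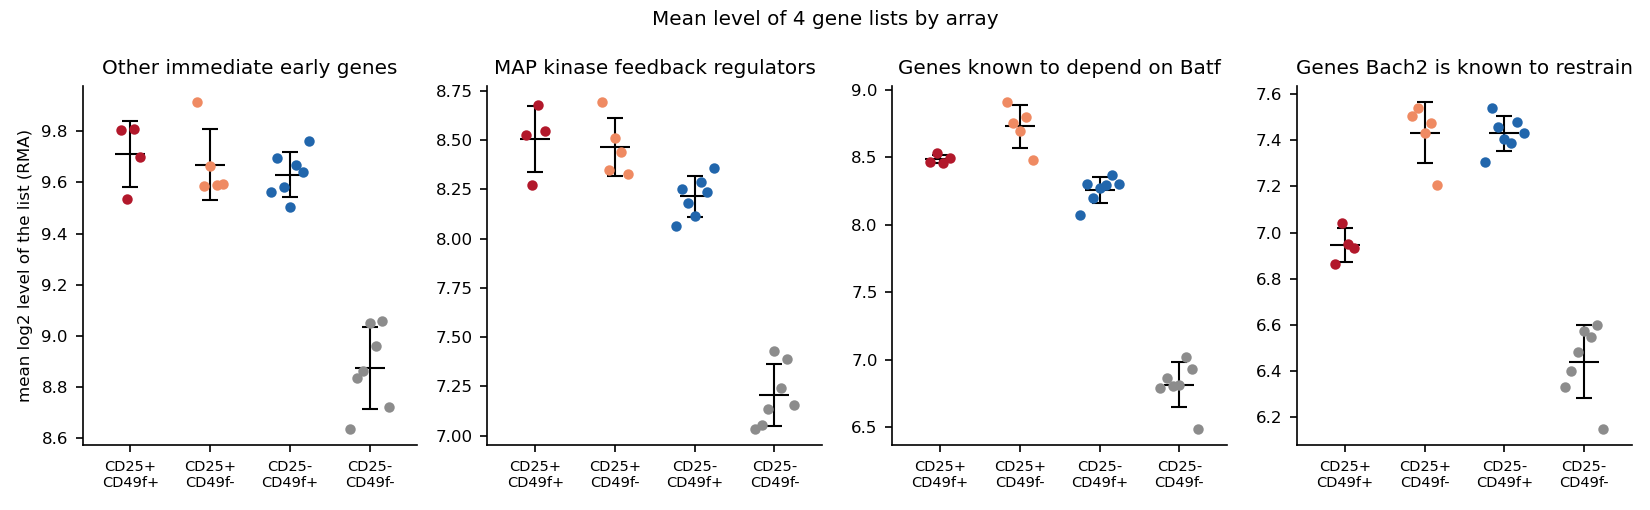
Mean log2 level of 4 gene lists on each array (RMA; axes do not start at 0), by gate, with the mean and SD in black: 19 other immediate early genes, 12 feedback regulators of MAP kinase signalling, 12 genes known to depend on Batf and 21 genes that Bach2 is known to restrain. CD25-CD49f- cells are lowest for each list, and for the last the CD25+CD49f+ arrays (6.86 to 7.04) lie between them and the other gates.

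The order of gate levels, from high to low by mean, was CD25+CD49f-, CD25+CD49f+, CD25-CD49f+ and CD25-CD49f- for Fos, Fosb and the brighter Jun probe set. For these genes only the last step was called. For Bach2 the order was CD25-CD49f-, CD25+CD49f-, CD25+CD49f+ and CD25-CD49f+, and the middle step was not called. For Batf3 it was CD25+CD49f-, CD25-CD49f-, CD25-CD49f+ and CD25+CD49f+, and the last step was not called (-0.09 ± 0.17 for CD25+CD49f+ against CD25-CD49f+ cells). For Jund and Batf the 3 highest gates were not shown to differ from each other.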

How the data were processed

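Total RNA of sorted cells was hybridised to 23 one-colour Affymetrix arrays. The deposited log2 values came from RMA, per the submitters' processing notes, which name no version. RMA corrects background, normalises by quantiles and summarises the probes of a probe set, so a uniform shift of all genes between gates would be removed. Columns were assigned by sample title, and 0 columns stayed unassigned.

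Of 45101 probe sets, 34958 named a single gene in the array annotation, 932 several and 9211 none, and 34754 of the 34958 matched RefSeq (GRCm38.p6) by Entrez identifier. For a gene with several probe sets the brightest on average was used, without a filter on low values. limma 3.58.1 in R 4.3.3 (lmFit, contrasts.fit, eBayes) fitted the 4 gates together, with Benjamini-Hochberg adjustment over 18194 genes, and over all probe sets in a further fit. The code was tested on simulated data. Relations across arrays used exact two-sided permutation tests in SciPy 1.17.1, and figures used matplotlib 3.10.9. The number of arrays limits the precision: the median SE of a difference was 0.124 for CD25+CD49f+ against CD25+CD49f- cells and 0.099 for CD25-CD49f+ against CD25-CD49f- cells.

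All members were named in every comparison. From each of the 16 lists the called members with the smallest p were eligible, 4 per comparison, and for members whose gate means spanned at least 1 the 3 nearest genes were named. The members and lists were chosen with earlier results of these data known. Same-numbered arrays of different gates did not deviate together throughout (correlations of -0.51 to 0.41), and some differed in Xist and Y-linked transcripts, so the numbers were not taken as pairs. No 2 arrays held identical values (highest correlation within a gate 0.996). Listed genes without a probe set of their own were not analysed here. Alternatives covered leaving out each array, replicate blocks, array weights, robust trended eBayes, 3 scalings, other uses of probe sets, brighter genes, the compared gates alone, a threshold of 0.01, the arrays that stood apart, arrays by Xist and Y-linked transcripts, and the Actb covariate.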

Additional observations from a re-analysis of the deposited data

Results flagged for a closer look

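Among the 40 combinations of a member and a gate, 3 held an array far from the rest of its gate, and chance alone flags about 1 in 20. Junb was 11.05 in CD25-CD49f+ replicate 1, with 10.35 as the next highest array of that gate. Batf was 9.18 in CD25-CD49f- replicate 7, with 8.22 next. Bach2 was 9.72 in CD25+CD49f+ replicate 2, with 9.62 next, in a gate whose SD was 0.06. The first 2 of these arrays were among the 4 with the lowest correlation with their own gate.

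The CD49f difference departed between CD25+ and CD25- cells, by the interaction term of the limma fit, for Fos (-2.07), Fosb (-2.50), Fosl2 (-0.78), Jun (-2.02), Jund (-0.79, but -0.35 and not called with the mean of its probe sets), Batf3 (-1.08) and Bach2 (1.05). For Fos, the CD49f difference was -0.07 within CD25+ and 2.004 within CD25- cells. For Bach2 it was -0.12 within CD25+ and -1.17 within CD25- cells, and for Batf3 it was -1.78 and -0.70, negative in both.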

How the results depend on the processing

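No called difference changed direction under any alternative, and 37 of the 70 differences kept the same side of the threshold under all of them. The 9 called members of CD25-CD49f+ against CD25-CD49f- cells stayed at 9 whichever array was left out, and became 6 in arrays without Y-linked transcripts, 7 in Y-linked arrays, 7 among brighter genes and 8 with the mean of probe sets, and stayed at 9 otherwise. For CD25+CD49f+ against CD25+CD49f- cells, 2 called members became 1 at an adjusted p under 0.01, with centring on the array median, with cyclic loess, in arrays without Y-linked transcripts, in Y-linked arrays without Xist and with the Actb covariate. They became 0 among brighter genes, where Fosl2 and Batf3 are not tested. Leaving out 1 array gave 1 to 2. For CD25+CD49f+ against CD25-CD49f+ cells, 2 became 1 at 0.01, among brighter genes and within either kind of array, and leaving out 1 array gave 1 to 2. For CD25+CD49f- against CD25-CD49f- cells, 9 became 3 in Y-linked arrays, with Fos (adjusted p = 0.0693) and Jun (0.0523) among the losses. Jund (adjusted p = 0.382), Atf3 (0.398) and Bach2 (0.739) lost their calls there in arrays without Y-linked transcripts. Leaving out 1 array gave 8 to 9. For CD25+CD49f+ against CD25-CD49f- cells, 9 became 4 in arrays without Y-linked transcripts and 5 in Y-linked arrays, and leaving out 1 array gave 7 to 9. With these gates fitted alone Fosl2 (adjusted p = 0.0576), Junb (0.0582) and Batf (0.11) lost their calls. Fos (adjusted p = 0.0695) and Jun (0.0573) were among the losses in Y-linked arrays. For CD25+CD49f- against CD25-CD49f+ cells, 2 became 1 among brighter genes. The interaction calls went from 7 to 3 at 0.01, 3 in arrays without Y-linked transcripts and 1 in Y-linked arrays, and leaving out 1 array gave 5 to 9. Fits within one kind of array use fewer arrays, and no member's called difference turned its sign there. The shares of all genes called in those fits are not given here, so the lower counts are not shown to be particular to the members. With the number as a fixed replicate block the interaction had 8 calls, the addition being Junb (-1.56, adjusted p = 0.0274), and 69 of 70 calls stayed; a random replicate block changed 0. Levels under about 6.50 (Fosl2, Atf3, much of Batf3 and Fosb in CD25-CD49f- cells) limit what their differences can show.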
